A study of Rattus norvegicus with 12 samples.

Results

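The expression of 10 genes of the Wnt pathway was followed in rat heart: the secreted antagonists Sfrp1, Sfrp2, Frzb, Dkk3 and Wif1, the Frizzled receptors Fzd1 and Fzd2, and the Wnt-responsive genes Wisp1, Wisp2 and Axin2. The 10 genes were chosen by symbol among the 32623 genes of the deposited table, and all 10 were found there with counts above 0. Heart RNA of male Sprague Dawley rats (labelled with an age of 5 weeks and 130 to 150 g) was sequenced in 12 libraries that fall into 3 groups of 4. An age of 5 weeks is shorter than the 8 weeks of normoxia in CTRL, so it is not the age of the sequenced hearts. Chrysin rats were given SU-5416 (Sugen, a blocker of VEGF receptors) under the skin at 20 mg/kg, had 3 weeks of hypoxia at 10% oxygen with 2 weeks of normoxia, and were then dosed for 3 weeks with the flavonoid chrysin (100 mg/kg daily). SU_HX rats went through the same model and received vehicle in place of chrysin. CTRL rats stayed in normoxia for 8 weeks. Whether hypoxia came before normoxia is ambiguous in the labels, which also name no region of the heart. The model raises the pressure load on the right ventricle, and chrysin was not given without the model. The labels do not state that every library is a rat of its own, so the p-values reflect the spread of these samples alone, which may be technical.

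Wnt proteins are secreted lipid-modified ligands that bind Frizzled receptors and, together with LRP5 or LRP6, keep beta-catenin from being degraded, so that it enters the nucleus and works with TCF/LEF factors on target genes. Secreted Frizzled-related proteins and Wif1 bind Wnts outside the cell, and Axin2 is a direct target that restores the degradation of beta-catenin and is widely used as a readout of the pathway. In the adult heart the pathway is largely quiet in cardiomyocytes, and several of its secreted members are products of fibroblasts.

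Promoter sequences from RefSeq (build GRCr8) were matched for 5 of the 10 genes: Sfrp2, Frzb, Wif1, Fzd1 and Axin2. Each window of 300 bases, reaching from 250 before to 50 after the start of the gene, was searched on both strands for CTTTGA, the core of TCF/LEF binding motifs. The window of Axin2 held it at 2 positions, 19 and 119 counted from the 5′ end, both on the strand of the gene, whereas the windows of the other 4 held none. Of 33469 rat promoters of this length, 16.1% held the motif on either strand and 1.85% held it at 2 or more places. The 250 bases upstream of Axin2 (chr10:94398535-94398784, plus strand) are shown because it was the only Wnt-responsive gene with a matched promoter. For Wisp1 and Wisp2 none was matched. The bases upstream of the receptor Fzd1 (chr4:30264824-30265073, plus strand) are shown for contrast. Capitals mark the motif.
Axin2: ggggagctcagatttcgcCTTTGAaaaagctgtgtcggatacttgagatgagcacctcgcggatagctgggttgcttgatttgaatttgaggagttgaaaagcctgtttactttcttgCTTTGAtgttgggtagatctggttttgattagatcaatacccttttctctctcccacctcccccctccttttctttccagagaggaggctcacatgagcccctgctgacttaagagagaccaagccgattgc
Fzd1: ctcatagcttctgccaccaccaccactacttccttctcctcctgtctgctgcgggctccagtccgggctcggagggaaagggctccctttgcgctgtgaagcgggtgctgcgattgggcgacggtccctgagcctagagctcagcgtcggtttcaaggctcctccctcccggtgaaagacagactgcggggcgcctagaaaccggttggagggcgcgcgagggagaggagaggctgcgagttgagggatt
A match of these letters is a description of the sequence and does not show that a factor is bound.

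Total counts per library were 3997306 to 6009798 in Chrysin, 4036489 to 5797763 in SU_HX and 4712077 to 5443100 in CTRL. Levels are given as CPM (counts scaled to a common library size), as mean ± SD with n = 4 per group, and per-library values run in the order of the numbers in the labels. Ventricular cardiomyocyte markers summed to 37879 to 79071 CPM in Chrysin, 22563 to 53392 CPM in SU_HX and 74201 to 80685 CPM in CTRL, whereas 4 atrial markers summed to 2.14 to 120 CPM over all libraries. The largest part of the ventricular sum in CTRL was Myh6, at a mean of 40500 CPM, against 11880 CPM in Chrysin and 4010 CPM in SU_HX. Myh7 of the same list went the other way, at 4322, 16070 and 15400 CPM. In SU_HX against CTRL, 4 of the 9 ventricular markers were called as lower, 1 as higher and 4 were not called. Over all tested genes 14.7% were called as lower and 16.0% as higher. The sum alone thus does not give the amount of cardiomyocytes. Library SU_HX 1 had 63.4% of its unique reads on nuclear genes in introns, against 42.6 to 50% in the other 11, and its endothelial markers summed to 2469 CPM, against 879 to 917 CPM in the other SU_HX libraries. Library Chrysin 3 had cardiomyocyte markers at 79071 CPM and activated fibroblast markers at 74.1 CPM, whereas the other Chrysin libraries lay between 37879 and 52562 CPM and between 350 and 971 CPM. Both libraries lay apart from their groups in several of the 10 genes, and results that rest on them are given with and without them.

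Set against CTRL, SU_HX shows how the 10 genes stood in the disease model. The antagonist Sfrp1, the receptor Fzd2 and the matricellular gene Wisp2 rose, with means of 37.9 ± 16.8, 18.8 ± 7.67 and 47.9 ± 46.1 CPM in SU_HX and of 9.74 ± 0.88, 6.42 ± 0.92 and 1.39 ± 0.68 CPM in CTRL. None of the tested genes among the 10 fell, and Axin2 did not pass the test. Of the 9 genes that passed the filter on low counts, 3 were called, while 30.7% of all 12304 tested genes were called in this comparison and 16.0% were called as higher and 14.7% as lower. The share of the Wnt genes called was thus close to that of all genes. Sfrp1 and Wisp2 were the 2 of 9 whose SU_HX and CTRL values did not overlap, both higher, where 15.9% of all tested genes were without overlap and higher and 16.8% were without overlap and lower. The other gene, Wisp1, did not pass the filter. Wisp2 passed it through the model libraries, since 4 SU_HX, 3 Chrysin and 1 CTRL library reached the minimum of 1.97 CPM. Calls are at a Benjamini-Hochberg adjusted p under 0.05 over all tested genes in edgeR's quasi-likelihood test. The median log2 fold change over all tested genes was 0.07.

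**Figure D1:**
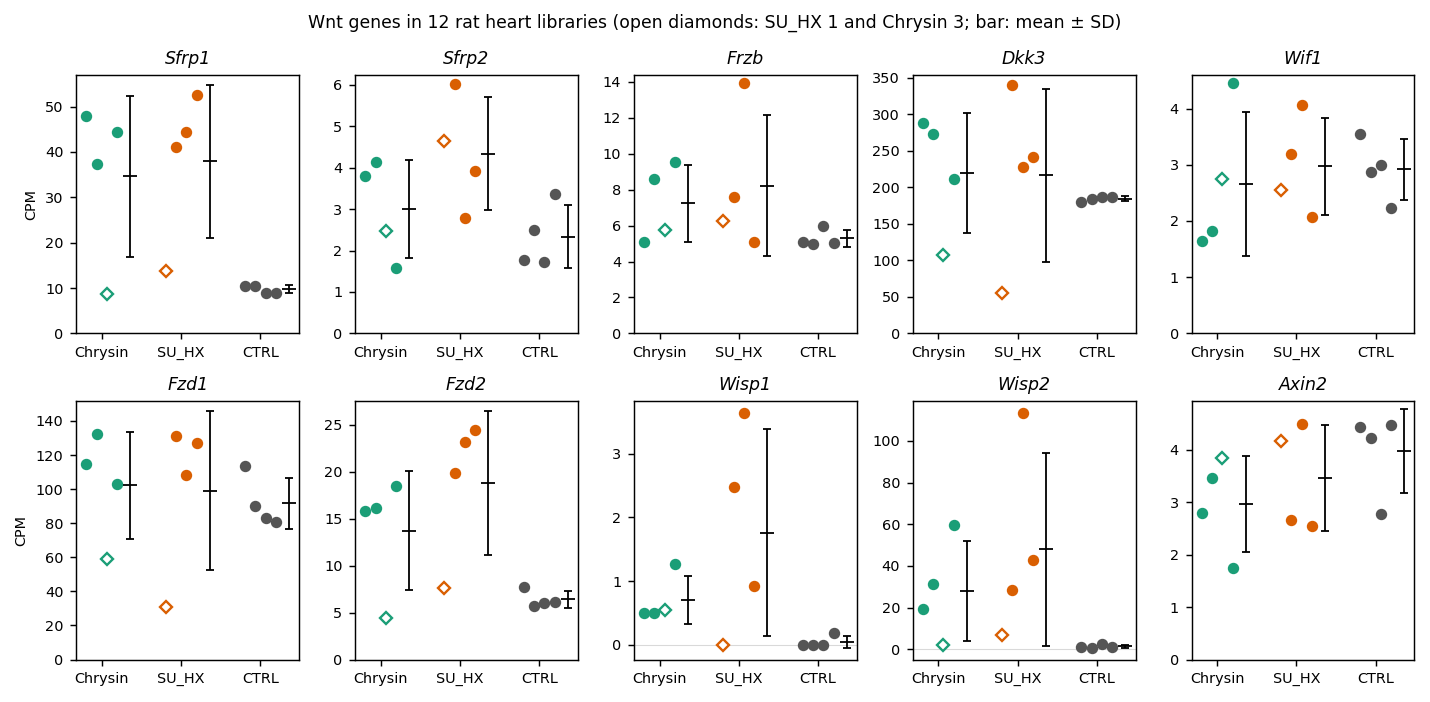
CPM of each of the 10 Wnt genes in every library, with Chrysin, SU_HX and CTRL from left to right, each on its own linear axis. Points are libraries, open diamonds mark SU_HX 1 and Chrysin 3, and the bar beside each group is the mean ± SD of 4 libraries; Sfrp1 lies at 13.7 to 52.5 CPM in SU_HX and 8.95 to 10.6 CPM in CTRL.

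Among the antagonists, Sfrp1 (ENSRNOG00000017783, chromosome 16, 73372007 to 73410777 in the deposited table, whose build is not given in the sources used here) was measured at 47.8, 37.4, 8.78 and 44.5 CPM in Chrysin, at 13.7, 41.1, 44.3 and 52.5 CPM in SU_HX and at 10.4, 10.6, 9.01 and 8.95 CPM in CTRL. Every SU_HX library lay above every CTRL library, and Chrysin 3 lay below the CTRL range while the other Chrysin libraries lay above it. Sfrp1 encodes a secreted Frizzled-related protein, which binds Wnt ligands through a domain like that of the Frizzled receptors. It was 3.89-fold higher in SU_HX than in CTRL (log2 fold change 1.96, SE 0.46, adjusted p = 0.00739 in edgeR). This call held in all 22 alternative analyses, with adjusted p of 1.5e-06 to 0.0292. In Chrysin against CTRL the gene was 3.59-fold higher (log2 fold change 1.84, SE 0.46, adjusted p = 0.0281). That call was lost when any 1 of the 4 CTRL libraries or Chrysin 1, 2 or 4 was left out (adjusted p of 0.0743 to 0.0916), and with limma-voom (adjusted p = 0.0887).

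Sfrp2, the close relative of Sfrp1 (ENSRNOG00000009465, chromosome 2, 182723854 to 182731764), stood at 3.79, 4.13, 2.47 and 1.59 CPM in Chrysin, 4.64, 6.03, 2.78 and 3.93 CPM in SU_HX and 1.78, 2.49, 1.72 and 3.36 CPM in CTRL. The groups overlapped, with the highest values in SU_HX 2 and SU_HX 1. The log2 fold change of SU_HX over CTRL was 0.88 (95% interval 0.10 to 1.67), with an adjusted p of 0.0811, so Sfrp2 was not called. Frzb, a Frizzled-related protein first described in cartilage (ENSRNOG00000007765, chromosome 3, 67635607 to 67668772), had 5.11, 8.59, 5.76 and 9.54 CPM in Chrysin, 6.26, 7.62, 13.9 and 5.08 CPM in SU_HX and 5.11, 4.99, 6.004 and 5.03 CPM in CTRL. SU_HX 3 was the high library and the rest of the SU_HX group reached down into the CTRL values. Its log2 fold change in SU_HX over CTRL was 0.64 (interval -0.03 to 1.31) with an adjusted p of 0.133. It stood at 0.47 in Chrysin over CTRL (interval -0.20 to 1.14, adjusted p = 0.368).

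Dkk3, a Dickkopf family member whose effect on Wnt signalling depends on the context (ENSRNOG00000016343, chromosome 1, 176940693 to 176983045), was measured at 288, 272.3, 107 and 211 CPM in Chrysin, 55.4, 339.9, 227 and 242 CPM in SU_HX and 179.9, 184, 187 and 187 CPM in CTRL. The CTRL libraries lay within a narrow range, and Chrysin 3 and SU_HX 1 were both below all of them while the other 6 model libraries were above all of them. Over all libraries the log2 fold changes were 0.23 in SU_HX (interval -0.66 to 1.12, adjusted p = 0.698) and 0.25 in Chrysin (interval -0.64 to 1.15, adjusted p = 0.749), each over CTRL. Without SU_HX 1 and Chrysin 3, Dkk3 was called as higher in both comparisons (adjusted p = 0.0153 in SU_HX and 0.0363 in Chrysin, each against CTRL). Removal of these 2 libraries was chosen with an earlier analysis of the same data known. As both were the lowest of their groups, leaving them out could only raise the group means. It was the only 1 of the 22 alternatives that called Dkk3 in either comparison. Leaving out 1 library gave no call in edgeR (adjusted p of 0.129 to 0.897 in SU_HX and 0.465 to 0.934 in Chrysin, each against CTRL).

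Wif1, Wnt inhibitory factor, which binds Wnts directly (ENSRNOG00000004476, chromosome 7, 63094911 to 63165159), was low throughout, at 1.65, 1.82, 2.74 and 4.45 CPM in Chrysin, 2.55, 3.19, 4.07 and 2.08 CPM in SU_HX and 3.55, 2.88, 3.00 and 2.24 CPM in CTRL. The 3 groups overlapped. The log2 fold change of SU_HX over CTRL was 0.04, with a 95% interval of -0.72 to 0.80, and that of Chrysin over CTRL was -0.12 (interval -0.89 to 0.64). Summed over a group, Wif1 rested on 59, 57 and 57 counts in Chrysin, SU_HX and CTRL, and differences within these intervals were left unresolved by these libraries.

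Of the receptors, Fzd2 (ENSRNOG00000021962, chromosome 10, 90550147 to 90552057, 1 exon) was measured at 15.8, 16.2, 4.39 and 18.4 CPM in Chrysin, 7.66, 19.9, 23.1 and 24.5 CPM in SU_HX and 7.77, 5.76, 6.004 and 6.15 CPM in CTRL. SU_HX 1 lay within the CTRL range and Chrysin 3 below it, and the other 6 model libraries lay above every CTRL library. Fzd2 was 2.93-fold higher in SU_HX than in CTRL (log2 fold change 1.55, SE 0.40, adjusted p = 0.0116 in edgeR), and the call held in all 22 alternatives. In Chrysin against CTRL the log2 fold change was 1.12 (SE 0.40, adjusted p = 0.0948), which missed the threshold. It passed without Chrysin 3 (adjusted p = 0.0115), without SU_HX 1 (0.0311), without both (6.68e-05), with voom quality weights (0.00184) and with only these 2 groups in the fit (0.0402).

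Fzd1 (ENSRNOG00000016242, chromosome 4, 26470864 to 26475262, 1 exon), a receptor of the same family, stood at 115, 132, 58.7 and 103 CPM in Chrysin, 30.6, 131, 108 and 127 CPM in SU_HX and 114, 90.2, 82.8 and 80.6 CPM in CTRL. As for Dkk3, SU_HX 1 and Chrysin 3 lay below every CTRL library, and the remaining libraries of the 3 groups overlapped. Its log2 fold change in SU_HX over CTRL was 0.11 (interval -0.66 to 0.89, adjusted p = 0.831), and 0.16 in Chrysin over CTRL (interval -0.61 to 0.93, adjusted p = 0.822). Without the 2 libraries it was called as higher in SU_HX than in CTRL (adjusted p = 0.0376). As for Dkk3, both were the lowest of their groups, so leaving them out could only raise the group means. No other of the 22 alternatives called Fzd1 in this comparison, and leaving out 1 library gave adjusted p of 0.169 to 0.962 in edgeR. The 2 receptors thus differed in whether the test called them over all libraries, and that difference between genes was not itself tested.

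Among the Wnt-responsive genes, Wisp2 (also Ccn5; ENSRNOG00000010666, chromosome 3, 160207913 to 160219331) was measured at 19.1, 31.4, 1.92 and 59.4 CPM in Chrysin, 6.96, 28.5, 113.5 and 42.7 CPM in SU_HX and 1.33, 0.77, 2.36 and 1.12 CPM in CTRL. All SU_HX libraries lay above all CTRL libraries, with a wide spread among themselves, and Chrysin 3 alone of the Chrysin group lay inside the CTRL range. Wisp2 encodes a secreted protein of the CCN family that lacks the C-terminal domain of its relatives and is made by fibroblasts and smooth muscle. It was 34.3-fold higher in SU_HX than in CTRL (log2 fold change 5.10, SE 1.01, adjusted p = 0.0035 in edgeR). The log2 fold change was 4.24 without SU_HX 3, the highest library, and the call was lost with limma-voom (adjusted p = 0.076). In Chrysin against CTRL it was 20.4-fold higher (log2 fold change 4.35, SE 1.01, adjusted p = 0.0228). That call was lost without any 1 of the CTRL libraries, Chrysin 2 or Chrysin 4 (adjusted p of 0.0597 to 0.0755), with no filter (0.0555) and with limma-voom (0.214), and the log2 fold change was 3.72 without Chrysin 4.

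Wisp1 (also Ccn4; ENSRNOG00000007078, chromosome 7, 107695215 to 107723772), a full-length CCN protein first found as induced by Wnt1, had counts of 3, 3, 2 and 8 in Chrysin, 0, 14, 17 and 4 in SU_HX and 0, 0, 0 and 1 in CTRL. Most of the reads in SU_HX came from SU_HX 2 and 3. The sum of 35 counts in SU_HX against 1 in CTRL gave a ratio of 36.5 after scaling for depth (exact 95% interval 6.13 to 1480), and 16 counts in Chrysin against 1 in CTRL gave 14.3 (2.23 to 601). These intervals cover counting error only, and reads without molecular identifiers are not independent molecules. With no filter on low counts edgeR called Wisp1 in SU_HX against CTRL (adjusted p = 0.00927) but not in Chrysin against CTRL (adjusted p = 0.139). In the authors' deposited table the fold change was 24.04 in SU_HX (adjusted p = 0.000777) and 9.96 in Chrysin (adjusted p = 0.119), each over CTRL.

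Axin2 (ENSRNOG00000055010, chromosome 10, 97212432 to 97239642) stood at 2.80, 3.47, 3.84 and 1.75 CPM in Chrysin, 4.18, 2.66, 4.50 and 2.54 CPM in SU_HX and 4.44, 4.22, 2.79 and 4.48 CPM in CTRL. The groups overlapped, and the lowest library was Chrysin 4. The log2 fold change was -0.21 in SU_HX over CTRL (95% interval -0.87 to 0.46, adjusted p = 0.638) and -0.45 in Chrysin over CTRL (interval -1.11 to 0.22, adjusted p = 0.389). It was called in none of its alternatives in either comparison. With 65 counts in SU_HX and 79 in CTRL, the interval leaves out a rise in SU_HX of more than 0.46 on the log2 scale. Changes inside the interval were left unresolved by these libraries.

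Set against CTRL, the Chrysin group thus had 2 of the 9 tested genes called, Sfrp1 and Wisp2, both higher, where 8.69% of all tested genes were called, 4.72% as higher and 3.97% as lower. Chrysin and CTRL values overlapped in all 9, where 10.6% of all tested genes were without overlap and higher and 12.8% were without overlap and lower. Both comparisons with CTRL share the same 4 CTRL libraries, so they are not independent. The median log2 fold change over all genes was 0.00 in this comparison. In the authors' deposited table the genes past an adjusted p of 0.05 in Chrysin over CTRL were likewise Sfrp1 (fold change 3.61, adjusted p = 0.00147) and Wisp2 (20.13, adjusted p = 1.97e-05). In SU_HX over CTRL the authors' deposited table gave 3.88 for Sfrp1 (adjusted p = 0.000187), 2.91 for Fzd2 (0.00231) and 33.98 for Wisp2 (1.44e-07).

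**Figure D2:**
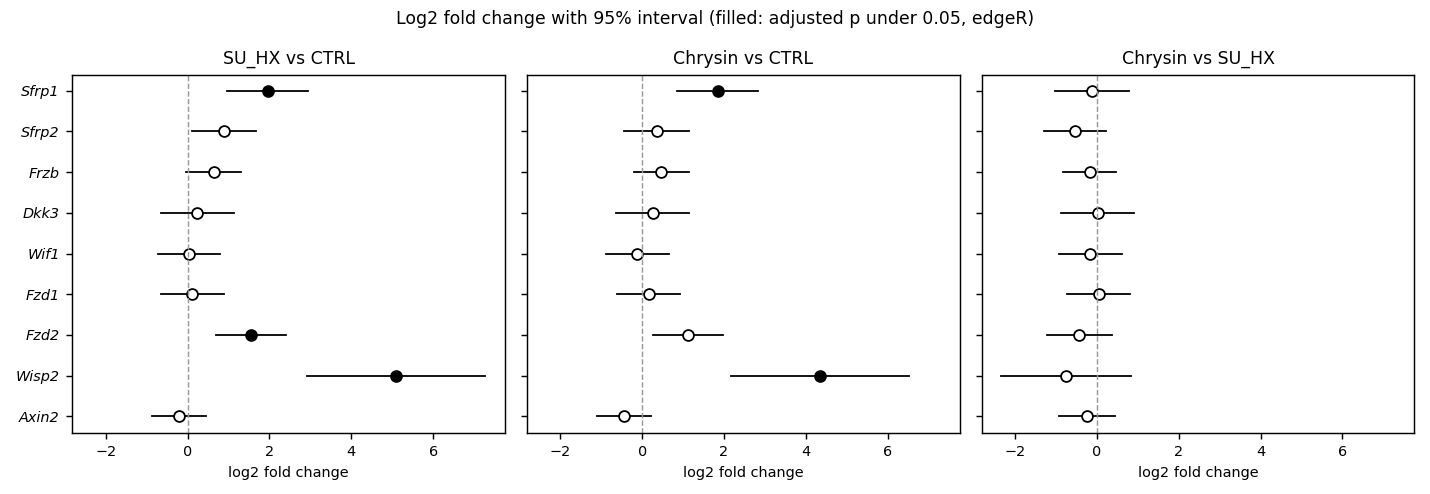
Log2 fold change of the 9 tested Wnt genes with its 95% interval in SU_HX against CTRL, Chrysin against CTRL and Chrysin against SU_HX, the group named first being on top of the ratio. Filled points have an adjusted p under 0.05 in edgeR: Sfrp1, Fzd2 and Wisp2 on the left, Sfrp1 and Wisp2 in the middle and none on the right.

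The comparison of Chrysin with SU_HX asked whether the compound changed these genes in the model. None of the 9 tested genes was called, and neither was any other gene (0% of 12304; edgeR, with 1002 genes or 8.14% at an unadjusted p under 0.05, and 2 genes called by DESeq2, neither of them among the 10). The log2 fold changes of the 9 ran from -0.75 for Wisp2 to 0.05 for Fzd1. The value of Wisp2 rested on single libraries: it was 0.13, with the sign turned, without SU_HX 3 and -1.39 without Chrysin 4. The intervals say what the data allow: -2.33 to 0.83 for Wisp2, -1.03 to 0.79 for Sfrp1, -1.23 to 0.37 for Fzd2 and -1.29 to 0.23 for Sfrp2. Dkk3, at 0.02, had an interval of -0.87 to 0.91. Wisp1 had 16 counts in Chrysin and 35 in SU_HX, with no call when the filter was dropped (log2 fold change -1.27, adjusted p = 0.692). A missed threshold at these widths does not show that the groups were alike. No alternative called any of the 10 genes in this comparison.

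Levels can be set against each other per length of exon. In CPM per kb, CTRL hearts held Dkk3 at 36.8 ± 0.68 and Fzd1 at 20.9 ± 3.42, far above Fzd2 at 3.36 ± 0.48, Sfrp1 at 2.50 ± 0.23 and Frzb at 1.93 ± 0.18. Wif1 at 1.301 ± 0.24, Axin2 at 0.998 ± 0.20, Sfrp2 at 0.997 ± 0.33 and Wisp2 at 0.77 ± 0.38 CPM per kb followed, and neighbours among these 4 overlapped between libraries. The first 5 and Wif1 did not overlap with their neighbours above. Wisp1 closed the order in CTRL at 0.02 ± 0.05 CPM per kb. In SU_HX, Wisp2 reached 26.6 ± 25.6 CPM per kb, next to Dkk3 at 43.2 ± 23.6 and Fzd1 at 22.5 ± 10.6, and all 3 overlapped between libraries. Fzd2 at 9.83 ± 4.01 and Sfrp1 at 9.74 ± 4.32 CPM per kb came next, and they overlapped too. In Chrysin, Wisp2 stood at 15.5 ± 13.4, Sfrp1 at 8.89 ± 4.57 and Fzd2 at 7.18 ± 3.31 CPM per kb.

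Reads in introns, which can come from unspliced RNA, were counted by the authors apart from the exon counts. Their origin was not tested. Fzd2, with 1 exon, still had 16, 22 and 9 reads under this heading in Chrysin, SU_HX and CTRL, and Fzd1, also with 1 exon, had 11, 6 and 4. Not all reads so labelled therefore lie in introns of the listed gene. Wisp2 introns had 12.9 ± 13.9 reads per 1000000 unique intron reads in Chrysin, 11.04 ± 7.85 in SU_HX and 0.32 ± 0.27 in CTRL. Sfrp1 introns had 12.3 ± 7.24 in Chrysin, 11.7 ± 4.77 in SU_HX and 4.97 ± 1.94 in CTRL on the same scale. The intron values of both genes were thus ordered between the model groups and CTRL as the exon counts were. For Axin2 the intron values were 3.25 ± 0.83 in Chrysin, 2.18 ± 0.51 in SU_HX and 3.83 ± 1.29 in CTRL. No test was run on intron reads.

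The remaining Wnt pathway was read through 114 further genes in 7 lists, of which 112 were in the table and 78 were tested. In SU_HX against CTRL, 14 of the 78 rose and 8 fell, or 28.2% against 30.7% of all genes, and their median log2 fold change was 0.04. The balance of the directions moved with single libraries: 13 rose and 14 fell without SU_HX 1, 16 rose and 14 fell without SU_HX 1 and Chrysin 3, 8 rose and 8 fell without CTRL 1, and 9 rose and 7 fell without SU_HX 3 or without SU_HX 4. Among targets and feedback regulators 7 of 10 were called, 6 higher and 1 lower, with a median of 1.01 (log2). Of the 28 genes of the beta-catenin pathway inside the cell, 2 were called, with a median of -0.11. No test of a list was made.

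Of the close relatives of the 10 genes, Sfrp4 and Ctgf rose in SU_HX against CTRL. Sfrp4, a Frizzled-related protein like Sfrp1, stood at 2.64, 1.65, 0.27 and 1.91 CPM in Chrysin, 0.46, 5.14, 7.07 and 3.47 CPM in SU_HX and 0, 0.77, 0 and 0.19 CPM in CTRL. SU_HX 1 and Chrysin 3 lay within the CTRL range. Sfrp4 rose in SU_HX over CTRL (log2 fold change 3.89, SE 0.90, adjusted p = 0.00714), and its log2 fold change was 5.46 without CTRL 2. It passed the filter on low counts through the model libraries, since 2 Chrysin, 3 SU_HX and 0 CTRL libraries reached the minimum of 1.97 CPM (taken before TMM scaling) and CTRL held 5 counts in all, and it was also called with no filter. Ctgf, the CCN relative of Wisp1 and Wisp2, was measured at 684, 1089, 161 and 1571 CPM in Chrysin, 584, 888, 1613 and 1439 CPM in SU_HX and 116, 129.5, 63.3 and 97.3 CPM in CTRL. Every model library lay above every CTRL library, with Chrysin 3 the lowest of them. Ctgf rose 11.1-fold in SU_HX (adjusted p = 0.00161) and 8.63-fold in Chrysin (adjusted p = 0.00892), each over CTRL, whereas its relatives Cyr61 and Nov were not called.

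Of 8 tested genes for Wnt ligands, R-spondins and Wnt secretion, 1 rose and 2 fell in SU_HX against CTRL. This was 37.5% called, beside 30.7% of all tested genes (16.0% higher and 14.7% lower). Wnt5a, which acts mainly without beta-catenin, stood at 11.2, 7.27, 16.5 and 8.11 CPM in Chrysin, 5.10, 8.86, 7.497 and 5.78 CPM in SU_HX and 23.3, 29.2, 34.3 and 24.99 CPM in CTRL. No model library reached the lowest CTRL library. Wnt5a was 4.06-fold lower in SU_HX (adjusted p = 8.95e-04) and 2.64-fold lower in Chrysin (adjusted p = 0.00847) than in CTRL. Wnt11, another ligand of this kind, was lower in SU_HX than in CTRL (log2 fold change -1.62, adjusted p = 0.00204), as was Trabd2b, a surface protease that cuts Wnts (-1.49, adjusted p = 8.3e-04), while Rspo1, an R-spondin that strengthens Wnt responses, and Apcdd1, a membrane-bound inhibitor, were higher (1.43 and 1.56). Rspo1 passed the filter through 3 Chrysin and 3 SU_HX libraries beside 1 CTRL library.

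Of 14 other tested receptors and co-receptors, Ror1 rose and Fzd5 and Rnf43 fell in SU_HX against CTRL. This was 21.4% called, beside 30.7% of all tested genes. Lrp5 and Lrp6, the partners of Frizzleds in the beta-catenin branch, had log2 fold changes of -0.22 and 0.03 and were not called. Ctnnb1, beta-catenin itself, stood at 0.11 on the same scale and was not called, and of the genes inside the cell the corepressor Tle3 rose and the scaffold Amer1 fell. Among targets and feedback regulators other than Axin2, the Dishevelled-binding genes Nkd2, Dact1, Dact2 and Dact3 rose by 1.14, 1.28, 1.37 and 0.87 and the cell cycle genes Myc and Ccnd1 by 1.78 and 0.56 on the log2 scale. Tnfrsf19, a TNF family receptor, fell (log2 fold change -3.59, and -4.41 without SU_HX 2). Tnfrsf19 passed the filter through CTRL alone, with 11 counts in Chrysin, 8 in SU_HX and 104 in CTRL, and Rnf43 through the 4 CTRL libraries beside 1 Chrysin and 1 SU_HX library, and both were also called with no filter. Prickle2 and Daam1 rose and Celsr1 fell in the planar cell polarity branch. The calls of Rspo1, Ror1, Amer1, Tle3, Dact2, Dact3 and Ccnd1 were each lost on leaving out any 1 of 3 to 9 libraries (adjusted p of 0.0503 to 0.125), and every library except Chrysin 3 was among these for at least 1 of the genes. The calls of Ror1, Dact2 and Dact3 were also lost with limma-voom (adjusted p = 0.071, 0.0996 and 0.0564), those of these 3 genes and Amer1 with only the groups compared in the fit (0.0511 to 0.0679), that of Ror1 with RLE factors (0.0547) and with no filter (0.0662), and that of Amer1 with the filter at a mean of 5 CPM (0.0523).

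In Chrysin against CTRL, 5 of the 78 pathway genes rose and 5 fell, or 12.8% against 8.69% of all genes. The 10 called became 5 without any 1 of the CTRL libraries or Chrysin 2, 6 without Chrysin 1 or Chrysin 4, and 17 without Chrysin 3, of which 9 were higher and 8 lower. Besides Ctgf and Wnt5a these were Nkd2, Myc, Ccnd1 and Daam1, which rose, and Wnt11, Trabd2b, Tnfrsf19 and Celsr1, which fell. The calls of Myc, Ccnd1, Daam1, Wnt11 and Celsr1 were lost without any 1 of the CTRL libraries or Chrysin 2 and, except for Ccnd1, without Chrysin 1 or Chrysin 4 (adjusted p of 0.0502 to 0.1). The log2 fold change of Tnfrsf19 was -3.30, and -3.92 without Chrysin 3. In Chrysin against SU_HX none of the 78 was called.

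**Figure D3:**
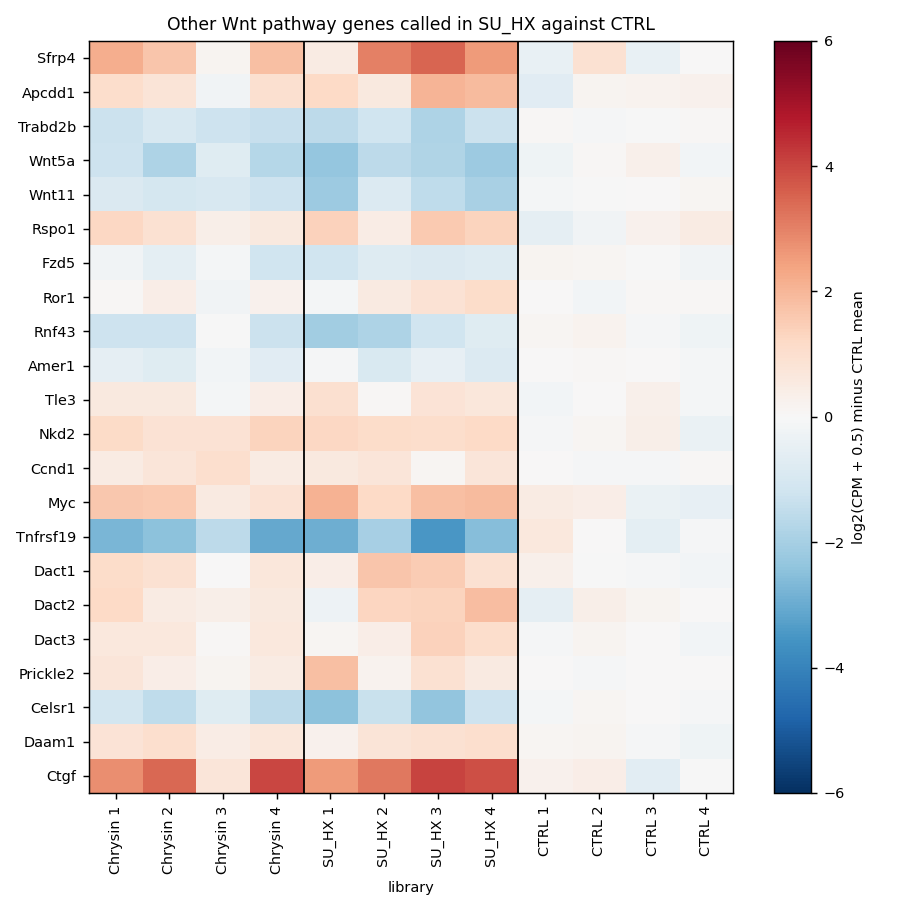
Level of the 22 other Wnt pathway genes called in SU_HX against CTRL, 1 row per gene and 1 column per library, as log2(CPM + 0.5) minus the mean of the CTRL libraries. Red is above and blue below CTRL; in 12 of the 14 genes that rose, Chrysin 3 is the lowest Chrysin library, as in Ctgf at 161 CPM beside 684 to 1571 CPM in the other Chrysin libraries.

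Hearts are mixtures, and in bulk RNA fewer cells of a type and less RNA per cell cannot be told apart. Over all tested genes, 16.0% were called as higher in SU_HX against CTRL and 4.72% in Chrysin against CTRL. Beside these shares, all 6 markers of activated fibroblasts rose in SU_HX against CTRL, as did Sfrp1, Fzd2 and Wisp2. Comp and Cthrc1 of these markers passed the filter on low counts through the model libraries, with CTRL means of 0.15 and 0.69 CPM. In Chrysin against CTRL, 5 of the 6 activated fibroblast markers rose. Their summed level was 350, 812, 74.1 and 971 CPM in Chrysin, 460, 887, 1439 and 781 CPM in SU_HX and 31.8 to 48.2 CPM in CTRL, and none of the 6 was at 0 in any group. SU_HX 1 and Chrysin 3 were the lowest of their groups by this sum and for Sfrp1, Fzd2 and Wisp2, whereas the highest SU_HX library was SU_HX 3 by this sum and for Wisp2, and SU_HX 4 for Sfrp1 and Fzd2. General fibroblast markers summed to 4646 to 9881 CPM in Chrysin, 5475 to 21716 CPM in SU_HX and 3923 to 6147 CPM in CTRL, with 5 of 7 called as higher in SU_HX against CTRL and 0 of 7 called in Chrysin against CTRL. The lowest SU_HX library was SU_HX 2 by the general fibroblast sum and SU_HX 4 by the macrophage and lung epithelial sums. Chrysin 3 was the lowest Chrysin library by the general fibroblast sum (4646 CPM) and the macrophage sum (185 CPM) as well. By the sum of valve and cartilage markers, SU_HX 1 (19.3 CPM) and Chrysin 3 (20.3 CPM) were again the lowest of their groups. SU_HX 4 was the highest SU_HX library by that sum (39.5 CPM). In contrast, SU_HX 1 was the highest SU_HX library by the smooth muscle and pericyte sum (1362 CPM, beside 720 to 1053 CPM). It was also the highest by the endothelial (2469 CPM), mesothelial (60.5 CPM) and Schwann cell (19.3 CPM) sums. Of 8 smooth muscle and pericyte markers, 2 rose in SU_HX against CTRL and 6 were not called. Pdgfra and Tcf21, which define resident fibroblasts, were not called in SU_HX (log2 fold changes 0.33 and -0.38). Macrophage markers rose too, 7 of 7 in SU_HX and 6 of 7 in Chrysin, each against CTRL, with sums of 185 to 470 CPM in Chrysin, 339 to 718 CPM in SU_HX and 119 to 178 CPM in CTRL. Lung epithelial markers, which heart should lack, summed to 5.95 to 16.2 CPM in Chrysin, 12.7 to 61.9 CPM in SU_HX and 1.07 to 3.84 CPM in CTRL, and 4 of 4 tested rose in SU_HX against CTRL. The 4 tested, Sftpa1, Sftpc, Scgb1a1 and Napsa, had CTRL means of 0.24, 0.52, 0.20 and 1.06 CPM. They passed the filter on low counts through the model libraries. The part of these cell types in the levels of the Wnt genes was not tested.

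**Figure D4:**
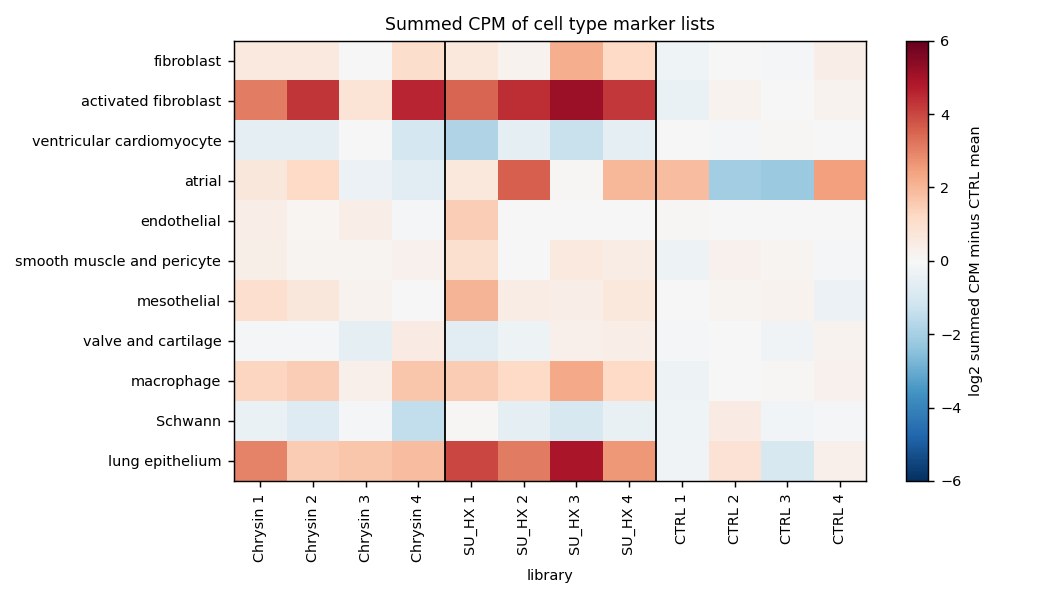
Summed CPM of each cell type marker list in every library, as log2 of the sum minus the CTRL mean, with Chrysin, SU_HX and CTRL from left to right. Activated fibroblast markers are at 350 to 971 CPM in Chrysin 1, 2 and 4, at 74.1 CPM in Chrysin 3, at 460 to 1439 CPM in SU_HX and at 31.8 to 48.2 CPM in CTRL.

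The genes whose profiles were most like those of the 9 tested genes were found by the root mean square difference of log2 CPM over the 12 libraries, after each gene was centred on its own mean, among 11469 genes. Dkk3 and Fzd1 were each other's closest gene, at 0.196, and both then had Slc16a1 and Mrps6 next. Their libraries share the low values of SU_HX 1 and Chrysin 3 described above. Sfrp1 was closest to Avpi1 (0.248), Fstl3 (0.286) and Tsc22d1 (0.288), Fzd2 to C5ar2 (0.208), Camta1 (0.217) and Pla2g4a (0.247), and Wisp2 to Tmem119 (0.66), C1qtnf3 (0.675) and Col8a2 (0.694). These differences compare with the spread of each gene about its own mean, which was 1.06 for Sfrp1, 0.832 for Fzd2 and 2.26 for Wisp2. Sfrp2, Frzb, Wif1 and Axin2 were closest to Gpr153 (0.277), Kdelr3 (0.166), Phf6 (0.205) and Gramd1b (0.171), beside spreads of their own of 0.515, 0.427, 0.37 and 0.365.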

How the data were processed

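The authors deposited 1 table of 32623 genes with 12 libraries; per the file headers each library has a whole-number count per gene ("Expression values"), exon and intron reads, and the authors' own tests. Signed fold changes (a score, negative where the gene is lower) and adjusted p-values were copied from the authors' deposited table. What aligner, build and annotation served is not given in the sources used here. Starts count from 0 in the table, and 1 was added. No 2 libraries of a group agreed within sampling noise (chi-square per degree of freedom of at least 3.17), so none was taken as a second deposit of another, which does not show that they are separate rats. The depth was 3997306 to 6009798 counts per library.

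Counts were tested with edgeR 4.0.16 in R 4.3.3 (TMM, filterByExpr by group, robust quasi-likelihood F test, two-sided), with all 12 libraries in 1 fit and Benjamini-Hochberg adjustment over 12304 genes; the threshold was 0.05. SE is the absolute log2 fold change over the square root of F. The code was tested on simulated data. The 22 alternatives were RLE factors, DESeq2 1.42.0, no filter, a filter at a mean of 5 CPM, limma-voom (limma 3.58.1), voom quality weights, only the groups compared, replicate number as a block, unique exon reads, each of 12 libraries left out, and SU_HX 1 with Chrysin 3 left out. Same-numbered libraries did not deviate together, so numbers were not taken as pairs.

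The 10 genes, the lists of other genes and the libraries doubted were chosen with earlier results of these data known. All 10 were named; of other Wnt genes the rule takes the 3 largest called changes per list, or all where 5 or fewer passed in a direction. Genes named beside these, such as those not called, were chosen after their values were seen. Likeness used log2 CPM with a prior count of 2 and the 3 closest genes. Znrf3 and Axin1 were not matched.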

Additional observations from a re-analysis of the deposited data

Results flagged for a closer look

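In 30 sets of 4 libraries (10 genes in 3 groups), the gap between an end value and the next was compared with the range of the set, at Dixon's 95% critical value. For normally distributed values chance alone marks about 1 set in 20, and 4 were marked. That rate does not hold for counts as low as those of Wisp1, whose CTRL counts of 0, 0, 0 and 1 are always marked. Wisp1 in Chrysin 4 was 1.27 CPM, above 0.495 to 0.549 CPM in the other Chrysin libraries, and Wisp1 in CTRL 4 was 0.186 CPM, from 1 count, where the other CTRL libraries had 0. Axin2 in CTRL 3 was 2.79 CPM, below 4.22 to 4.48 CPM in the other CTRL libraries. Frzb in CTRL 3 was 6 CPM, above 4.99 to 5.11 CPM in the rest.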

How the results depend on the processing

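No value of the 10 genes reversed its call. In SU_HX against CTRL, 3 of the 9 tested genes were called, and 3 in each analysis that left out 1 library. The count was 2 with limma-voom and 4 of 10 with no filter. It was 5 without SU_HX 1 and Chrysin 3, where 4540 of all 12396 tested genes were called. All genes called ranged from 2486 to 4780 over the analyses that left out 1 library, lowest without SU_HX 3. With voom quality weights, 34 other pathway genes were called (17 higher, 17 lower), beside 22. In Chrysin against CTRL, the count of 2 became 1 with no filter, 0 with limma-voom and 4 without SU_HX 1 and Chrysin 3, and it ranged from 0 to 3 on leaving out 1 library. The 1069 genes called there became 1733 with DESeq2, 4589 with quality weights, 2599 with only these 2 groups and 3564 without both libraries, and 303 to 2092 on leaving out 1; the 10 other pathway genes became 28 with quality weights, 24 without both libraries and 5 to 17 on leaving out 1. DESeq2 called 2 genes in Chrysin against SU_HX. Analyses that left out a library had fewer samples; otherwise the cause was not tested.

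The replicate numbers of the labels were also fitted as a block: 1 of the 10 genes (Wisp2) and 624 genes were then called in Chrysin against CTRL, with 3 of the 10 and 3242 genes in SU_HX against CTRL. The calls lost under the block were those of Sfrp1 (adjusted p = 0.0634), Wnt11 (0.0529), Ccnd1 (0.0584) and Daam1 (0.054) in Chrysin against CTRL and those of Ror1 (0.0669), Tle3 (0.0603), Ccnd1 (0.0504), Dact2 (0.0642) and Dact3 (0.0609) in SU_HX against CTRL; it ended no other call of a gene named here. Same-numbered libraries correlated at -0.382 to 0.074 in their deviations from the group means and differently numbered ones at -0.219 to 0.486. These values gave no sign of a pairing but cannot exclude one, since deviations from a mean of 4 libraries depend on each other. The labels do not say what the numbers stand for.

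Depth limits Wisp1, at 1 to 35 counts per group, Wisp2 in CTRL, at 27 counts, and Sfrp2, Wif1 and Axin2, at 47 to 84 counts per group.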
